A study of Mus musculus with 8 samples.

Results

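The translation initiation factor genes of the mouse were described here by where Smad4 was detected at them in activated CD4+ T cells. They were taken as every protein-coding gene of the RefSeq table of mm10 (GRCm38.p6) whose symbol starts with Eif and a digit. This gave 56 of the 21779 coding genes used. The symbol rule used no measured value, but the family was chosen with earlier results of these data known. Smad4 is the common partner of the receptor-activated SMAD proteins, which carry TGF-β and BMP signals to the genome, and it was located by ChIP-seq, the sequencing of immunoprecipitated chromatin. The cells were C57BL/6 CD4+ T cells of spleen and lymph nodes, activated, treated with IL-6 together with a blocker of the TGF-β receptor, and taken at 12 h. The 2 WT libraries (WT 1 and WT 2), both labelled female, carried no engineered allele by their labels. The 2 KO libraries were CD4cre;Smad4fl/fl, in which a Cre driven by Cd4 elements acts in T cells; KO 1 pooled both sexes and KO 2 was male. All 4 libraries shared the treatment, and no arm without the inhibitor was analysed here. Each came with its own list of peak positions, with no height or score, and the number of reads behind each list was unknown. There were 27120 peaks in WT 1, 19792 in WT 2, 564 in KO 1 and 424 in KO 2. The labels do not say that replicates came from separate animals.

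Initiation factors bring the small ribosomal subunit and the initiator tRNA to the start codon of an mRNA. The GTP-binding factor eIF2 carries the tRNA, eIF3 organises the small subunit, and eIF4F recognises the cap and unwinds the leader. T cells that leave the resting state raise protein synthesis, and the step is tuned through phosphorylation of eIF2 and through inhibitors of the cap-binding protein eIF4E. Peaks show where Smad4 was detected, and give neither the expression of these genes nor the rate of translation.

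Smad4 was called at most initiation factor genes in WT cells and at none in KO cells. A WT-only region was a stretch with a peak in both WT lists and none in either KO list. Such a region lay within 1 kb of an end of the gene, here called a gene end, in 38 of the 56 genes (67.9%). Among all coding genes the share was 29.4%. Counted over the gene body and 10 kb on both sides, called the territory here, 41 of the 56 genes (73.2%) held a WT-only region, against 44.3% of all coding genes. A KO peak lay in the territory of 0 of the 56 genes. In all coding genes that share was only 2.42%, so an empty KO territory did not set these genes apart. The nearest KO peak lay 30.3 kb from Eif4a2, and the median distance was 1175 kb.

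By library, 47 of the 56 genes had a peak in their territory in WT 1, 43 in WT 2, and 0 in each of the KO libraries. The same shares over all coding genes were 53.5% and 48.5% in WT and 1.87% and 1.16% in KO. The genotypes did not overlap, with means of 45.0 ± 2.83 (SD, n = 2) and 0 genes. The 2-sided exact permutation test gave p = 0.333, which is the smallest p that 2 libraries against 2 allow. At gene ends the numbers were 44 and 40 genes in WT and 0 and 0 in KO, where all coding genes gave 36.7%, 32.7%, 0.409% and 0.174%. The KO lists were short over the whole genome, so the contrast between genotypes was not particular to initiation factors.

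**Figure D1:**
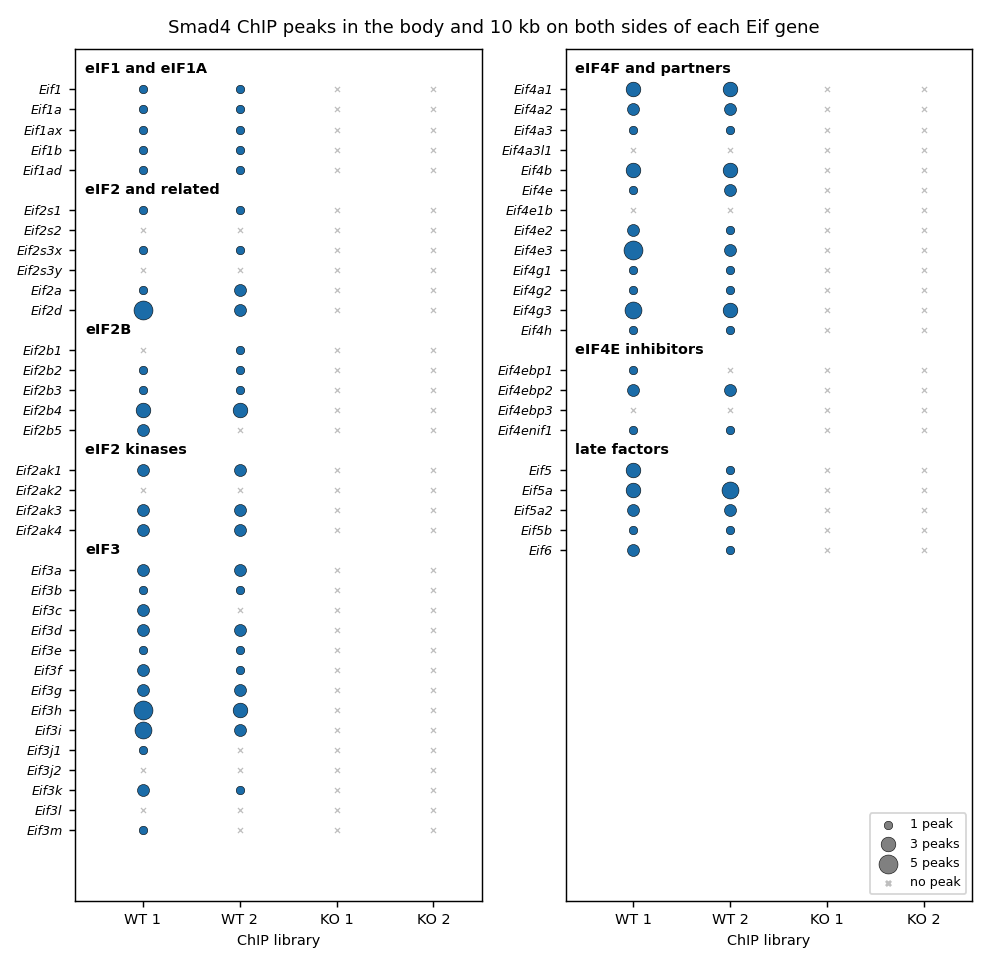
Number of Smad4 peaks (size of the point) in the body and 10 kb on both sides of each of the 56 Eif genes, by ChIP library and grouped by role; a grey cross is no peak. Peaks stand in the columns of WT 1 (47 genes) and WT 2 (43 genes), and both KO columns are empty.

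The higher share was also seen within bands of gene length. Among genes with a body under 10 kb, 13 of 18 initiation factor genes (72.2%) had a WT-only region at an end, against 20.6% of all coding genes of that length. From 10 to 30 kb the count was 15 of 23 (65.2%, against 33.8%), and from 30 to 100 kb it was 10 of 14 (71.4%, against 38.5%). Eif4g3, the 1 gene over 100 kb, had none at an end. At the shares of all coding genes in the same length bands, 17.1 of the 56 genes would hold a region at an end (30.6%) and 25.3 in the territory (45.1%). Neither comparison was matched on activity in these cells. Ribosomal protein genes gave 63 of 85 at a gene end (74.1%) and proteasome genes 28 of 51 (54.9%), so a share well above that of all coding genes was not particular to initiation factors. Differences between these families were not tested.

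**Figure D2:**
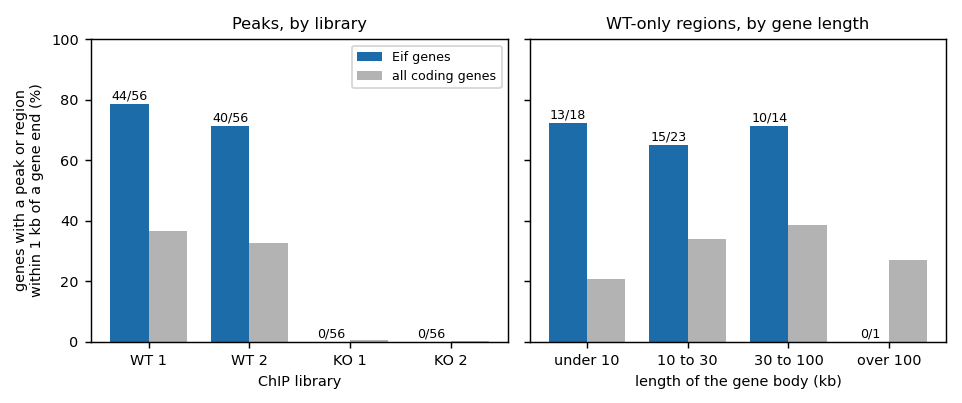
Percentage of genes with a peak within 1 kb of a gene end in each library (left) and with a WT-only region there by length of the gene body (right), for Eif genes (blue, with counts above) and all coding genes (grey). The blue bars in WT stand at 78.6% and 71.4%, against 36.7% and 32.7% in grey, and in each length band below 100 kb blue lies above grey.

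Most of the regions sat over the start of the gene. The direction of transcription was known for the 44 genes with an entry in a RefSeq promoter table on the same build. In these genes all 33 WT-only regions at a gene end met the 5′ end and 0 met the 3′ end. Over all coding genes with such an entry, 89.6% of the end regions met the 5′ end only and 8.46% the 3′ end only. The centre lay within 500 bp of a listed start site in 28 of the 33 (84.8%; 83.7% over all coding genes). It was downstream of the start in 20 (60.6%; 46.2% over all coding genes) and upstream in 13. The distances ran from -642 bp at Eif5b, upstream, to 946 bp at Eif4a1, with a median of 60 bp downstream. The peak centres of both WT libraries were 47.5 bp apart in the median region. Of the 63 WT-only regions in all territories, 61.9% (39 of 63; exact 95% Clopper-Pearson interval 48.8% to 73.9%) were centred within 1 kb of the gene's end, 9 were elsewhere inside it and 15 outside. Over all coding genes 34.8% were centred at an end, 34.8% elsewhere inside the gene and 30.4% outside. These location shares were not matched on gene length. Genes over 100 kb made up 1 of the 56 and 2427 of the 21779 coding genes. The interval covers counting error only, since neighbouring regions are not independent.

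**Figure D3:**
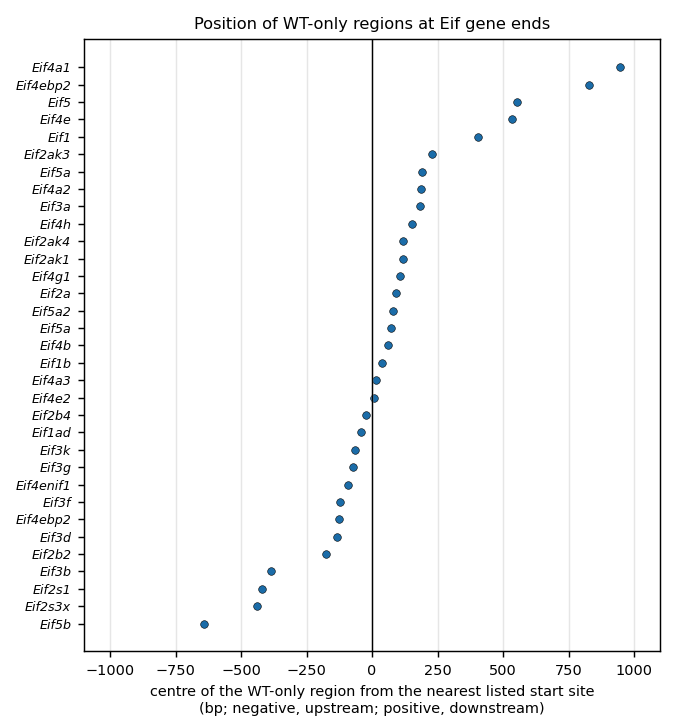
Distance in bp from the nearest listed start site to the centre of each of the 33 WT-only regions at an Eif gene end whose strand was known; negative is upstream. Most of them, 28, lie within 500 bp of the start.

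The bases before the start are shown for 6 genes, because they include genes whose WT-only region covered the whole of this window and genes without a peak; none of the regions shown was centred in it. Eif2s1 and Eif4a2 had the widest end regions that covered this window, and the region of Eif4g1, the scaffold gene of the cap complex, covered it too. At Eif4a1 the region began 147 bp downstream of the start and left the window free. Eif2s2 and Eif3l had no peak in any list. Each line is the 250 bases before the 5′-most listed start in RefSeq (GRCm38.p6), 5′ to 3′ on the strand of the gene, at chr12:78861822-78862071, plus strand; chr16:23107218-23107467, plus strand; chr16:20672477-20672726, plus strand; chr11:69672424-69672673, minus strand; chr2:154892907-154893156, minus strand; and chr15:79074973-79075222, plus strand. Capitals mark matches on either strand to CAGACA and GGCGCC (elements bound by SMAD proteins), TGANTCA (AP-1), CCGGAA (ETS), CACGTG (E-box), GCGCATG (NRF1) or ATGGCGG (YY1). No window shown has an overlap of matches to different motifs.
Eif2s1: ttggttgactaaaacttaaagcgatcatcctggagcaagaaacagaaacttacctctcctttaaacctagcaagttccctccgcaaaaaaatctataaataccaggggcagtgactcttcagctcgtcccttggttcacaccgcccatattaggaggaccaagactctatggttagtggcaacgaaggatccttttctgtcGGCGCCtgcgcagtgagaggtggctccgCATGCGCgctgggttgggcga
Eif4a2: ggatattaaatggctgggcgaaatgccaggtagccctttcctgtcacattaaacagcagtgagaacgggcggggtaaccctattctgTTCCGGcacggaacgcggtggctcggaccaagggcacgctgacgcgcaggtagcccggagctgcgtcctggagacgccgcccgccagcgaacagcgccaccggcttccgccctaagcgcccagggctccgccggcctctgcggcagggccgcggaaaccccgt
Eif4g1: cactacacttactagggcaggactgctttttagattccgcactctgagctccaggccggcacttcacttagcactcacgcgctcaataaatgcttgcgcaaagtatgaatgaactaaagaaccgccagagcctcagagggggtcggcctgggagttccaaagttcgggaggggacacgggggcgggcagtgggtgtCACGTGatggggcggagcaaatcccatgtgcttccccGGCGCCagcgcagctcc
Eif4a1: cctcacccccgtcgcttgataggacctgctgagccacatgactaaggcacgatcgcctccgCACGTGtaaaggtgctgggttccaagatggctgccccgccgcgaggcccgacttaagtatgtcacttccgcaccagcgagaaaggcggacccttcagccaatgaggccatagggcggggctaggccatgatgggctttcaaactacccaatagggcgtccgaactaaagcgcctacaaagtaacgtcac
Eif2s2: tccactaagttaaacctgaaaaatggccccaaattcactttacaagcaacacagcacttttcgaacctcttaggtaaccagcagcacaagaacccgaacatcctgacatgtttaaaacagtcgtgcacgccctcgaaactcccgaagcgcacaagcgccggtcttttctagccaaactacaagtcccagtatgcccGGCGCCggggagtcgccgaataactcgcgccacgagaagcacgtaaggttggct
Eif3l: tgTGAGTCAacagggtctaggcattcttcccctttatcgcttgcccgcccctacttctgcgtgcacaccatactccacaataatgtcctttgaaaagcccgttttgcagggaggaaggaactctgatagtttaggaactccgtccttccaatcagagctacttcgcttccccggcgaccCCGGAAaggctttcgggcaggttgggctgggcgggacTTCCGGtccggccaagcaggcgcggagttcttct

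The SMAD element GGCGCC stood in the window of Eif2s1 and Eif4g1, which were bound, and in that of Eif2s2, which had no peak. Over the 31 genes with a promoter entry and an end region it occurred in 9 (29.0%), over the 13 without an end region in 2 (15.4%), and in 12.1% of all 17492 promoters. Among all coding genes with an end region, the like-for-like group for the 31, it was in 19.0%. CAGACA occurred in 6 of the 31 (19.4%) and 0 of the 13, against 15.2% of all promoters and 13.8% in that group. The shorter SMAD element GTCT, not capitalised above, was in 26 of the 31 and 9 of the 13, against 82.0% of all promoters and 80.9% in that group. The E-box CACGTG, which MYC and related factors bind, was in 7 of the 31 (22.6%) and 0 of the 13. Its share was 6.65% of all promoters and 9.16% of those of coding genes with an end region. The ETS element CCGGAA was in 9 of the 31 (29.0%) and 6 of the 13 (46.2%), against 15.2% of all promoters and 26.5% of those of coding genes with an end region. The AP-1 element was in 3 of the 31 and 1 of the 13 (6.18% of all promoters and 3.6% of those of coding genes with an end region). GCGCATG was in 4 and 1 (4.0% and 6.23%), and ATGGCGG in 0 and 1 (2.52% and 4.35%). Median GC content was 61.2% in the 31 and 56.0% in the 13, against 61.6% and 52.0% in coding genes with and without an end region. The median number of CpG dinucleotides was 20 in the 31 and 16 in the 13, against 18 and 5. A match describes the letters, with binding at the match not measured, and no test was made of these shares. The 13 were not all without a peak at the start. Eif4g3 had a WT-only region that met the window. Eif1ax, Eif2b1, Eif2b5, Eif3c, Eif3j1 and Eif3m had WT peaks at the start that formed no shared region. Among the 13, CCGGAA was in Eif1ax, Eif2d, Eif3c, Eif3l, Eif3m and Eif4g3, and ATGGCGG in the Y-linked Eif2s3y. Conversely, the end regions of Eif4a1 and Eif5 did not meet the window.

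Both helicase genes of the cap complex were bound in WT. Where 2 widths follow below, the first is that of WT 1 and the second that of WT 2, and no KO peak lay in any of these territories. Eif4a1 (chromosome 11, 69666936 to 69672423) encodes the RNA helicase that unwinds the leader of the mRNA. Its end region (69670679 to 69672276) had peaks of 1450 bp in WT 1 and 1558 bp in WT 2, and it also met an end of Senp3. With 2 more regions outside the gene, Eif4a1 held 3 WT-only regions. The region at Eif4a2, the paralogue of Eif4a1 (chromosome 16, 23107468 to 23114132), spanned 23106923 to 23108388, with peaks of 1466 and 1002 bp. At Eif4a3, a related helicase of the exon junction complex (chromosome 11, 119288363 to 119300043), the peaks were 698 and 630 bp (119299673 to 119300387). The copy Eif4a3l1 had no peak; how reads of near-identical copies were placed is not given in the sources used here.

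The widest region of all initiation factor genes lay at Eif4g2, which encodes DAP5, an eIF4G relative used in cap-independent initiation (chromosome 7, 111067985 to 111083030). Its region (111081553 to 111083860) had peaks of 2238 bp in WT 1 and 1942 bp in WT 2. The peaks at Eif4g1 (chromosome 16, 20672720 to 20692883) were narrower, at 496 and 718 bp (20672475 to 20673192). Eif4g3 (chromosome 4, 137991779 to 138207086) had no region at a gene end by the 1 kb rule. 1 region was centred 124 bp downstream of a listed start site inside the gene (137993253 to 137993906), with peaks of 654 and 590 bp. Eif4e, the cap-binding protein gene (chromosome 3, 138526191 to 138559696), had peaks of 1134 and 902 bp at its 5′ end (138526079 to 138527367). Eif4b, which encodes a helper of the helicase (chromosome 15, 102073773 to 102097173), had peaks of 804 and 774 bp (102073431 to 102074234) and 3 regions in all. Of the 13 genes of eIF4F and its partners, 9 had an end region and 11 a region in the territory. Over all coding genes the shares were 29.4% and 44.3%. The oocyte gene Eif4e1b had no peak.

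Among the inhibitors of eIF4E, 2 of 4 genes had an end region, against 29.4% of all coding genes. Eif4enif1, which encodes the 4E transporter (chromosome 11, 3202343 to 3244588), had peaks of 1166 and 934 bp (3201908 to 3203073) in WT 1 and WT 2. Its region also met ends of Gm51877 and Sfi1. Eif4ebp2, an inhibitor that mTORC1 releases from eIF4E by phosphorylation (chromosome 10, 61428491 to 61452790), held 2 regions at its 5′ end. The wider (61452396 to 61453197) had peaks of 802 and 536 bp, and the narrower 240 and 242 bp. These were the smallest widths of WT 1 and WT 2 in the end regions of all coding genes. Eif4ebp1 had 1 peak, of 468 bp, in WT 1 alone, and Eif4ebp3 had no peak.

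Of the genes of eIF2 and its relatives, 3 of 6 had an end region, against 29.4% of all coding genes. Eif2s1 encodes the α subunit, whose phosphorylation lowers initiation under stress (chromosome 12, 78862072 to 78887010). Its region (78860866 to 78862437) had peaks of 1572 and 1416 bp and also met an end of Atp6v1d. The γ subunit gene Eif2s3x (chromosome X, 94188709 to 94212651) had peaks of 1428 and 932 bp (94212372 to 94213805). The β subunit gene Eif2s2 had no peak in any library, so the subunit genes of this one complex differed in calls. Eif2s3y, the Y-linked copy, had none either, and both WT libraries are labelled female. Eif2a, a separate tRNA-binding factor gene (chromosome 3, 58525821 to 58557501), had peaks of 768 and 752 bp at its start (58525527 to 58526300), in a region shared with Serp1. Eif2d had 1 region inside the gene, 3.21 kb from its end, with peaks of 912 and 590 bp.

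The exchange factor eIF2B reloads eIF2 with GTP, and 3 of its 5 subunit genes had an end region, against 29.4% of all coding genes. Eif2b4 (chromosome 5, 31187558 to 31193139) held 3 regions. The one at its start (31192782 to 31193539) had peaks of 656 and 758 bp and also met Snx17. The others were centred outside Eif2b4 and met ends of Gtf3c2, or of Ppm1g and Zfp513. Eif2b2 and Eif2b3 each held 1 region. Eif2b1 had a peak of 406 bp in WT 2 alone and Eif2b5 had 2 peaks in WT 1 alone. Of the 4 eIF2 kinase genes, whose products phosphorylate eIF2 in response to stress, Eif2ak1, Eif2ak3 and Eif2ak4 each held 1 region at the start and 1 elsewhere. Peaks at the start were 726 and 242 bp at Eif2ak1, 482 and 434 bp at Eif2ak3, and 580 and 376 bp at Eif2ak4, in WT 1 and WT 2. Eif2ak2, which encodes the double-stranded RNA sensor PKR, had no peak in any library.

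In eIF3, the largest initiation complex, 9 of 14 genes had an end region, against 29.4% of all coding genes. A peak lay in the territory of 12 genes in WT 1 and 9 in WT 2, against 53.5% and 48.5% of all coding genes. Eif3d (chromosome 15, 77958998 to 77970824) had peaks of 960 and 856 bp (77970479 to 77971438), and Eif3a (chromosome 19, 60761116 to 60790693) 1198 and 560 bp (60789895 to 60791124). Eif3b (chromosome 5, 140419305 to 140443358) had the wider peak in WT 2, at 1018 bp against 448 bp (140418411 to 140419428). Eif3h held 3 regions, with peaks of 560 and 498 bp at a gene end. Eif3c, Eif3j1 and Eif3m had peaks in WT 1 alone. Eif3j2 and Eif3l had no peak. The 5 genes named last made up all eIF3 genes without a region shared by both WT libraries.

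Of the 5 genes grouped with eIF1 and eIF1A, the factors that position the start codon, 4 had an end region. The share was 29.4% over all coding genes. The region of Eif1a also met an end of Tmed7. Eif1 (chromosome 11, 100319949 to 100322099) had peaks of 972 and 994 bp (100319845 to 100320861). Eif1ad, which encodes a protein with an eIF1A domain (chromosome 19, 5366813 to 5371518), had peaks of 914 and 826 bp in a region shared with Banf1 (5366312 to 5367225). Eif1ax on chromosome X had a peak of 302 bp in WT 1 and of 242 bp in WT 2, but they lay 105 bp apart and formed no shared region. All 5 late factor genes had an end region, against 29.4% of all coding genes. Eif5a, which encodes the hypusine-bearing factor (chromosome 11, 69916712 to 69921958), held 3 regions, 2 of them within 1 kb of its 5′ end. The wider (69919856 to 69921261) had 1 peak of 1380 bp in WT 1 and 2 peaks in WT 2, of 672 bp summed. Of these, only the WT 1 peak came within 1 kb of the gene end. The other region (69921396 to 69922141) had peaks of 634 and 746 bp. The remaining region was centred outside Eif5a and met ends of Gps2 and Neurl4. Eif5a2, the paralogue of Eif5a (chromosome 3, 28781032 to 28798846), had peaks of 520 and 790 bp (28780859 to 28781855). Eif5b, the GTPase gene of subunit joining (chromosome 1, 37998010 to 38055579), had peaks of 504 and 1338 bp in a region shared with Txndc9 (37996699 to 37998036). At Eif6 the peaks were 562 and 432 bp, in a region outside the gene, beyond its lower coordinate. That region also met ends of Mmp24 and BC029722.

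Of the 40 distinct regions at ends of initiation factor genes, 27 were wider in WT 1 (67.5%) and 12 in WT 2. Over the 5731 end regions of all coding genes, 62.6% were wider in WT 1. The summed width of the WT peaks ran from 482 to 4180 bp with a median of 1319 bp, against a median of 1272 bp over all coding genes. Widths at initiation factor genes thus had a median near that of all coding genes, and 22 of the 40 were above that median. In 11 of the 38 genes (28.9%) the end region also met an end of another coding gene, so the call cannot be given to 1 gene; the share was 33.2% over all coding genes with an end region.

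**Figure D4:**
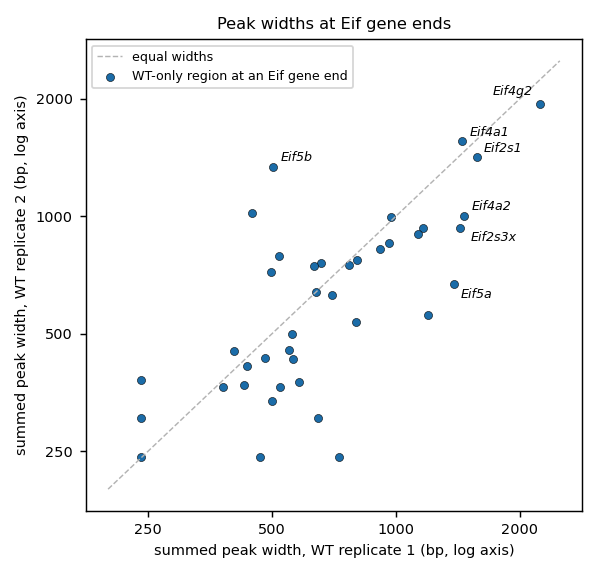
Summed width in bp of the peaks of WT 1 (horizontal axis, replicate 1) and WT 2 (vertical axis, replicate 2) in each of the 40 WT-only regions at an Eif gene end, both on log axes; the dashed line marks equal widths. Eif4g2 is widest in both libraries, and 27 points lie below the line.

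Of the 15 genes without a WT-only region, 8 had no peak in any list, namely Eif2ak2, Eif2s2, Eif2s3y, Eif3j2, Eif3l, Eif4a3l1, Eif4e1b and Eif4ebp3. The other 7 had peaks that were not shared. In 5 of them (Eif2b5, Eif3c, Eif3j1, Eif3m and Eif4ebp1) only WT 1 had peaks, which is the longer list, and in Eif2b1 only WT 2. A WT 1 peak lay in the territory of 47 of the 56 genes and a WT 2 peak in 43, against 53.5% and 48.5% of all coding genes. The all-gene shares with no peak, or with peaks in 1 WT list alone, are not given here. With the depth unknown, a region shared by both WT lists was not detected at these 15 genes, which does not show that Smad4 was absent. Of the 41 genes with a region, 25 held 1, 10 held 2 and 6 held 3. At least 2 regions were thus found in 16 of 56 genes (28.6%), against 19.1% of all coding genes.

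Genes that act with the initiation factors were often bound too. Of 34 such genes, 25 (73.5%) had a WT-only region at a gene end, against 29.4% of all coding genes, and 31 (91.2%) in the territory, against 44.3%. The widest lay at Mknk2, which encodes a kinase of eIF4E, with peaks of 2694 and 2198 bp. Rheb, the GTPase that switches on mTORC1, had 1692 and 1718 bp, and Pabpc1, the poly(A)-binding protein gene, 1610 and 1470 bp. The termination factor gene Gspt1 had 1448 and 1462 bp, the stress-response factor gene Ddit3 1556 and 1218 bp, and the mTORC1 inhibitor gene Akt1s1 1230 and 1454 bp. By group, an end region was found in 8 of 13 genes of mTORC1 and eIF4E control, 8 of 9 initiation partners, 2 of 4 genes of eIF2 dephosphorylation and stress output, 5 of 6 elongation genes and 2 of 2 termination genes. A KO peak lay in the territory of 2 of the 34 genes, Atf4 in KO 1 and Eef1a1 in KO 2, against 2.42% of all coding genes.

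As a check of the cell type, all 7 markers of CD4+ T cells (Cd4, Cd3e, Cd3d, Cd3g, Cd247, Cd28 and Lck) held a WT-only region in their territory, against 2 of 4 B cell markers, 0 of 4 myeloid and 0 of 4 hepatocyte markers. The share over all coding genes was 44.3%. The B cell markers were Cd79a with 5 regions and Pax5 with 1. At a gene end the count was 5 of 7 CD4+ T cell markers and 1 of 4 B cell markers, against 29.4% of all coding genes. Cd4 and Cd247 had no region there, and Cd247 had a peak in both KO lists. Cd3d and Cd3g shared a region at their ends. All 6 elongation genes also held a region in the territory, so such a count does not by itself identify a cell type. The part of other cells in the calls at initiation factor genes was not tested.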

How the data were processed

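Smad4 ChIP-seq was analysed from the peak lists of 2 WT and 2 KO samples; the 4 input samples were not analysed here. The authors deposited 1 list per sample with chromosome, start and end, so the values are positions with no other unit. Per the submitters' processing notes, the tools were HOMER 4.8.3, Bowtie and Trim Galore and the build was mm10; their roles are not stated. The sources used here do not give thresholds, read depth or how the input entered.

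The RefSeq table on GRCm38.p6 held 21900 protein-coding genes. Outside Y, 121 genes with a start under 3 Mb were dropped, since many of those positions belong to scaffolds. WT peaks that met by 1 bp were merged. A gene end was called where a region met the 1 kb on either side of an end, and in location shares the region's centre decided. Positions are 1-based. Overlap code was tested on planted regions, which were all recovered. Lists were described by counts beside those of all coding genes, and libraries were compared by a 2-sided exact permutation test.

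The members and lists were chosen with earlier results of these data known. Named were members with an end region (up to 20, by summed peak width), members of each role group with the most regions, members with no peak and up to 6 related genes. Eif1ax, Eif2d and the genes called in 1 WT list, the kinase genes, Eif3h and Eif6 among others were named after their values were seen, as were the promoters printed of Eif4a1, Eif4g1, Eif2s2 and Eif3l. Ribosomal protein symbols left out the S6 kinases. Other settings tried were a mutual overlap of 50%, the wider part of each list, other gene-end and flank widths, start sites only, another KO rule, each library left out and a replicate block. Software: SciPy 1.17.1, pandas 2.3.3, numpy 2.4.6 and matplotlib 3.10.9 under Python 3.11.15.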

Additional observations from a re-analysis of the deposited data

How the results depend on the processing

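The count of initiation factor genes with a WT-only region at a gene end, 38 of 56, ran from 38 to 44 when 1 library was left out, with the highest value without WT replicate 2 (36.3% of all coding genes then). It was 30 with an overlap of 50% of both peaks (25.2% of all coding genes) and fell to 24 with the wider part of the peaks of each list (19.2%). It was 40 with gene ends of 5 kb (36.5% of all coding genes). With listed start sites only it was 32 of the 44 genes with an entry (30.3% of coding genes with one). In each of these settings the share of initiation factor genes lay above that of all coding genes. Under every alternative run that kept the gene-end rule, 19 genes held an end region, among them Eif4g2, Eif4a1, Eif4a2, Eif4e, Eif2s1 and Eif5a. The genes lost under the 50% overlap were Eif1a, Eif2ak1, Eif2ak3, Eif3a, Eif3b, Eif5, Eif5a2 and Eif5b. With the wider part of each list 14 genes were lost. They were Eif1a, Eif1b, Eif2ak1, Eif2ak3, Eif2ak4, Eif2b2, Eif2b3, Eif3e, Eif3g, Eif3i, Eif3k, Eif4e2, Eif4h and Eif6. The count in the territory ran from 30 with the wider part of each list (29.9% of all coding genes) to 47 without WT replicate 2 (53.2%). The count of genes with a KO peak stayed at 0 except with 50 kb on both sides, where it was 1 (5.26% of all coding genes); that gene was Eif4a2. The share of regions centred at a gene end rose to 74.6% with ends of 5 kb, a wider window by construction, and ran from 52.2% to 61.9% when 1 library was left out. The difference of 45 genes between WT and KO per library ran from 43 to 47 without 1 library. With the replicate block, which pairs WT and KO samples by number only, the exact permutation p was 0.5, the smallest that 2 pairs allow. Having 2 lists per genotype, without scores or depth limits all of these counts.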

Other observations

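Of the 63 WT-only regions in the territories, 15 (23.8%) were centred outside the initiation factor gene, against 30.4% over all coding genes. Of these 15, 12 met an end of another coding gene, and the all-gene share for that is not given here. The region beyond Eif2ak1 met ends of Aimp2 and Pms2 (1030 bp in WT 1 and 626 bp in WT 2), and the one beyond Eif2ak4 met Srp14, a gene of the signal recognition particle (626 and 920 bp). Regions at ends of Senp3 and Tnfsf13, and at Mpdu1, lay within 10 kb of Eif4a1. The region beyond Eif5a2 met Rpl22l1, a ribosomal protein paralogue gene (558 and 242 bp). Counts over the territory therefore include regions at ends of neighbouring genes.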
